A study of Mus musculus with 36 samples.

Results

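The hearts compared here came from male mice that carry a pair of transgenes, written Tet-myrAkt1/?MHC-tTA in the labels, where a character of the driver's name is lost. The repressed hearts, 4 in number, came from mice aged 14 weeks and 2 days, in which Akt1 had been induced for 2 weeks and then switched off for 2 days. The induced hearts, also 4, came from mice aged 14 weeks after 2 weeks of induction with no repression. These samples were chosen by their titles and make up 8 of the 18 hearts and 16 of the 36 arrays of the series, since each heart was hybridised to chip 430A and to chip 430B. Of the same strain were 3 hearts after 6 weeks of induction and 2 weeks of repression (20 weeks old), 3 hearts after 6 weeks of induction (18 weeks old) and 4 hearts before induction (12 weeks old), which share the estimate of spread. The question is which transcripts differed 2 days after active Akt1 was withdrawn from the growing heart. Each heart came from an individual mouse, every mouse carried both transgenes, hearts without the transgenes were not analysed here, and the p-values speak only of variation among the animals used.

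As background, tTA is a tetracycline-controlled activator, driven in such mice by the alpha myosin heavy chain promoter of heart muscle cells, and myristoylated Akt1 is held at the membrane, where it is active without an upstream signal. Akt carries the insulin and growth factor signal. It drives protein synthesis and cell growth through mTORC1, and it phosphorylates FoxO transcription factors, which keeps them out of the nucleus and silences genes of protein breakdown and autophagy. In striated muscle the FoxO targets include the ubiquitin ligases of atrophy.

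All levels are linear signals as deposited. A log2 change is the mean of the repressed hearts minus the mean of the induced hearts on the log2(signal + offset) scale, which understates the change of dim probe sets, and calls were made where limma, adjusting over the whole chip, gave p under 0.05. A gene is given by its brightest kept probe set on chip 430A, or on chip 430B where it has none on chip 430A, and brighter probe sets on chip 430B whose call differed are named beside it. Dimmer probe sets that were not called are named for a part of the genes only. Of all 14650 measured genes, called or not, 1387 had every repressed heart above every induced heart and 1416 had every one below. The largest rises and falls were picked among probe sets with such a separation, so it is no further test. The ratio of 3′ to 5′ probe signal of Actb, which tracks RNA integrity and labelling, was 1.08, 1.18, 1.04 and 1.06 in the 2-day repressed hearts, against 1.92, 1.26, 1.3 and 1.41 in the 2-week induced hearts on chip 430A. It was lower in every repressed heart than in any induced heart (difference -0.388, two-sided exact permutation p = 0.0286, the smallest that 4 against 4 hearts allow, and 0.0381 after adjustment over 4 ratios). Counts are therefore also given from a model that holds this ratio. Genes called lower had a median genomic length of 13.3 kb and genes called higher one of 28.5 kb, beside 22.5 kb for all genes, and the part of RNA quality in that difference was not tested. Before-induction hearts 3 and 4, labelled male, had Xist signals of 5412.5 and 3271.3, against 136.2 to 289.2 in the other hearts, and 6-week induced heart 3 had an Actb ratio of 3.71. Leaving these 3 hearts out lost none of the 167 calls that were checked among those named below. Over 100 probe sets that both chips carry, 3 of the 8 hearts were matched best by the array of their own label on the other chip, so values were not combined across chips heart by heart.

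Akt1 followed its labels. Its brightest probe set had signals of 745.4, 696.1, 705.7 and 724.7 in the 2-day repressed hearts, against 1981.3, 2888.2, 3480.7 and 3163.5 in the 2-week induced hearts. No repressed heart came near an induced heart (log2 change -1.9 ± 0.161 SE, adjusted p = 6.23e-07), and the 4 hearts before induction averaged 547.8. The other kept probe sets of Akt1, 1 on each chip, stood at log2 changes of 0.13 (adjusted p = 0.607) and 0.17 (adjusted p = 0.745), and the sources used here do not say which of the 3 can detect the transgene's RNA. In bulk tissue, fewer cells of a type and less RNA per cell cannot be told apart.

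**Figure D1:**
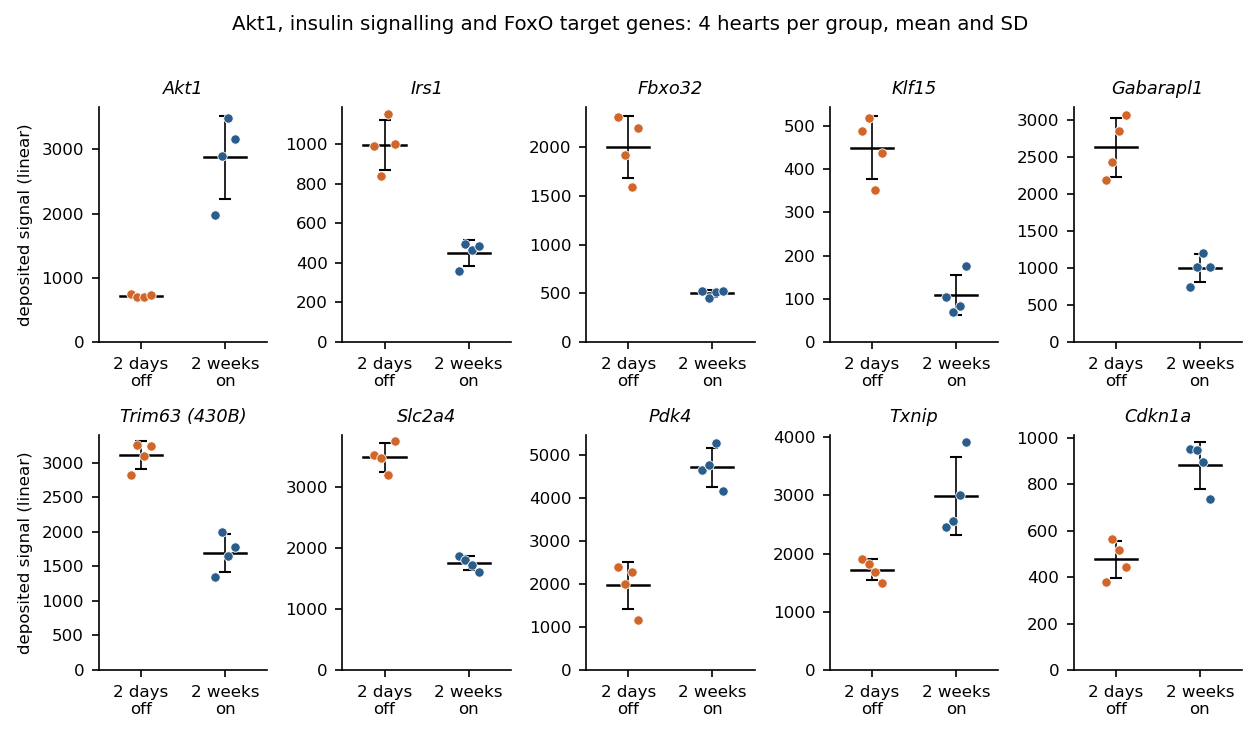
Deposited linear signal of 10 genes of the Akt and FoxO axis and its metabolic targets in the 4 hearts after 2 days of repression (orange, left) and the 4 hearts after 2 weeks of induction (blue, right). Points are hearts, lines are means and bars are SD; Akt1, Pdk4, Txnip and Cdkn1a are lower after 2 days of repression and the other 6 are higher, with no overlap of hearts.

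Within the insulin pathway Irs1, Tsc2 and Akt2 were higher after 2 days of repression. Of 28 measured genes of Akt and insulin signalling, 4 were called higher and 3 lower, Akt1 among them, beside 5.23% higher and 5.36% lower of all 14650 measured genes (7.36% and 7.87% of those read on chip 430A), and the list median was 0.16 beside -0.001 for all genes. These shares of all genes apply to each list count below. Irs1, the adaptor between the insulin receptor and PI3-kinase, had signals of 988, 839, 1149.1 and 1001.3 in the 2-day repressed hearts, against 356.2, 496.8, 463.4 and 483.6 in the 2-week induced hearts. Every repressed heart lay above every induced heart (log2 change 1.06 ± 0.134 SE, adjusted p = 5.91e-05). Tsc2, which restrains mTORC1, rose by 0.93 ± 0.19 (adjusted p = 0.00301). Akt2, the isoform that serves insulin-driven glucose uptake, rose by 0.55 ± 0.113 (adjusted p = 0.00311). Grb14, an inhibitor of the insulin receptor, averaged 3415 ± 546 in repressed hearts and 4990.3 ± 330 in induced hearts (SD, n = 4 each) and fell by 0.55 (adjusted p = 0.00464).

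On chip 430A 18% of 15565 kept probe sets were called, 1474 higher (9.47%) and 1333 lower (8.56%). On chip 430B 2.35% of 17519 were called, 275 higher (1.57%) and 137 lower (0.782%). Over both chips 9.73% were called, 5.29% higher and 4.44% lower. The balance of directions depended on the scaling of the arrays. Of all calls 54.3% were higher with the deposited scaling, 40.3% after scaling to a common median, which moved the median change on chip 430A by -0.111, and 48.4% after quantile normalization. With the Actb ratio in the model 1999 probe sets of chip 430A and 253 of chip 430B were called.

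The largest rise belonged to a protein of the sarcomere. Myom2, the M-band protein that ties myosin filaments together, had signals of 4307.7, 2349.8, 4575.4 and 3343.1 in the 2-day repressed hearts, against 246.3, 79.3, 458.8 and 275.2 in the 2-week induced hearts. All repressed hearts were far above all induced hearts (log2 change 3.66 ± 0.322 SE, adjusted p = 1.05e-06), and the mean before induction was 4648.8. On chip 430B other probe sets of Myom2 rose by 3.15 and 2.62, and a dim one was not called (-0.25).

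Several other large rises came from probe sets that are not the brightest of their gene. Dsp, the desmosome protein desmoplakin, rose by 3.22 at a dimmer probe set that averaged 2614.7 in repressed hearts and 266.2 in induced hearts, while its brightest averaged 6930.4 in repressed hearts and 6512.5 in induced hearts and stood at 0.09 (adjusted p = 0.63). Ryr2, the calcium release channel, rose by 2.49 at a dimmer probe set and stood at 0.15 (adjusted p = 0.445) at the brightest. Gys1, muscle glycogen synthase, rose by 2.63 at a dimmer probe set and stood at 0.4 (adjusted p = 0.136) at the brightest. Hdlbp, an RNA-binding protein, was called at 3 probe sets, by up to 2.36, and stood at 0.26 (adjusted p = 0.19) at its brightest. For these 4 genes the size of the change depended on the probe set. Gja1, the gap junction protein connexin 43, was called higher at its brightest probe set by 0.57 and at a dim one by 2.9. Ppp1r3c, which brings a phosphatase to glycogen, rose at both of its probe sets, by 1.19 and 2.47. Asb15, a muscle adaptor of ubiquitin ligases, rose by 2.4 at a dim probe set of chip 430A. Its far brighter probe set on chip 430B averaged 2033.1 in repressed hearts and 1522.9 in induced hearts and was not called (0.42).

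Large falls split in the same way. Psmd6, a subunit of the proteasome lid, had signals of 64.7, 51.3, 59.8 and 91.9 in the 2-day repressed hearts, against 1041.5, 980.6, 1693.6 and 1244.3 in the 2-week induced hearts at a dimmer probe set. The groups lay far apart there (log2 change -3.44 ± 0.197 SE, adjusted p = 5.5e-09), whereas the brightest probe set averaged 2487.1 in repressed hearts and 2590.6 in induced hearts and stood at -0.06 (adjusted p = 0.707). Trdn, which anchors the calcium release complex, fell by 2.29 at 1 probe set and rose by 0.7 at another, and stood at -0.37 (adjusted p = 0.133) at its brightest; the rise was lost after scaling to a common median and without repressed heart 1 or 4 or induced heart 3 or 4. Apmap, a membrane protein of fat cells, was called lower at both of its probe sets, by -1.98 and -0.66. Of 6583 genes with several kept probe sets, 1722 had a call; 125 of these had every probe set called in the same direction, 1545 had some called in the same direction and 52 had calls in both directions.

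**Figure D2:**
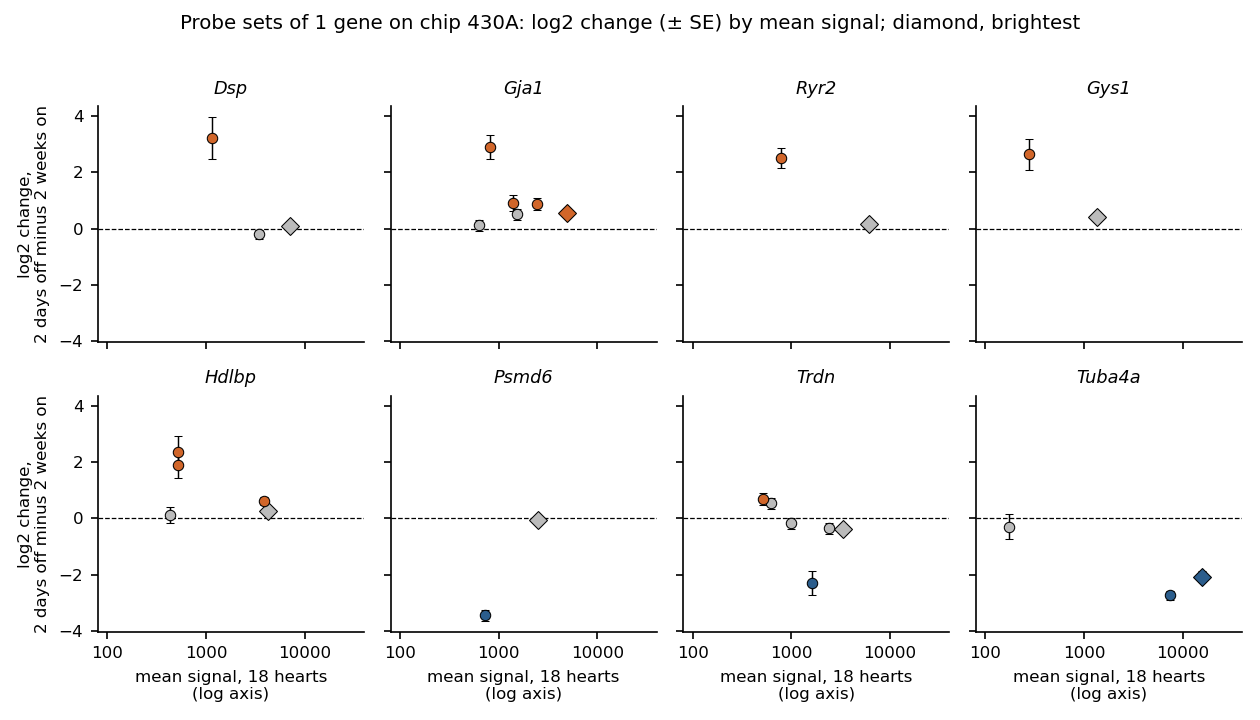
Log2 change with its SE (2 days of repression minus 2 weeks of induction) against the mean signal over 18 hearts on a log axis, for the kept probe sets of 8 genes. Orange marks probe sets called higher, blue called lower and grey not called, and a diamond marks the brightest; the large changes of Dsp, Ryr2, Gys1, Hdlbp and Psmd6 lie at dimmer probe sets.

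On chip 430B the other leading rises were those of Arhgap26, which rose by 2.97, Tmem143, which rose by 2.88, and Ifit1bl1, of an interferon-induced family, which rose by 2.8. The leading falls were those of Pih1d1, a chaperone adaptor, which fell by 3.08, Nxpe4, which fell by 3, and Paip1, a partner of the poly(A)-binding protein, which fell by 2.71. The brightest probe sets of Arhgap26, Tmem143, Pih1d1 and Paip1 were not called.

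FoxO-linked genes split into a rising and a falling set. Of 28 FoxO factors and FoxO-linked atrophy genes, 9 were called higher and 5 lower (median 0.26), and with the Actb ratio in the model the counts were 8 and 5. Fbxo32, the muscle ubiquitin ligase atrogin-1, had signals of 2308.5, 1915.4, 1589.4 and 2192.8 in repressed hearts, against 525.5, 449.8, 510.9 and 518.8 in induced hearts (log2 change 1.88 ± 0.217 SE, adjusted p = 2.4e-05). Klf15, a transcription factor that restrains heart growth and governs amino acid use, had 487.8, 518.5, 351.8 and 438.4 in repressed hearts, against 104.1, 69.8, 84.1 and 175.7 in induced hearts (1.69 ± 0.228, adjusted p = 0.000133). The lowest repressed heart was above the highest induced heart in both genes, and the means before induction were 1729.4 and 527. Trim63, the ubiquitin ligase MuRF1, measured on chip 430B, had 2826.6, 3259.3, 3101.9 and 3248.8 in repressed hearts, against 1347.6, 2005, 1645.1 and 1785.3 in induced hearts (0.88 ± 0.155, adjusted p = 0.0037). Its groups did not overlap either. Bcl2l11, the pro-apoptotic protein Bim, is not among these 28 genes. It rose by 0.5 (adjusted p = 0.0334) at its brightest probe set, a call lost after scaling to a common median and without repressed heart 1, 2 or 3 or induced heart 2, 3 or 4. Its second brightest probe set had 582.3, 579.7, 518.5 and 596.2 in repressed hearts, against 302.3, 418.8, 373.8 and 306.6 in induced hearts (0.64 ± 0.128, adjusted p = 0.0025), without overlap. Bcl2l11 also rose by 0.86 at another probe set, and its dimmest stood at 0.01 (adjusted p = 0.99). Sesn1, a sestrin that restrains mTORC1, rose by 0.43 (adjusted p = 0.0312) at its brightest probe set. That call was lost after scaling to a common median, with the Actb ratio in the model, and without any 1 repressed heart or induced heart 1 or 3. Sesn1 rose by 0.9 at a dimmer probe set, a call lost with the Actb ratio in the model and without repressed heart 1 or induced heart 1. Its remaining probe sets were not called (0.06 and 0.23).

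Pdk4, which blocks pyruvate dehydrogenase and is a known FoxO target, went the other way. Its signals were 2400.5, 2014.5, 2293.2 and 1175.3 in repressed hearts, against 4665.8, 4782.3, 5281.7 and 4176.2 in induced hearts (log2 change -1.29 ± 0.27 SE, adjusted p = 0.00338). All 4 repressed hearts were below all 4 induced hearts. Cdkn1a, the cell cycle inhibitor p21, fell by 0.83 ± 0.203 (adjusted p = 0.00851), and Sod2, the mitochondrial superoxide dismutase, fell by 0.7 ± 0.122 (adjusted p = 0.000959) at its brightest probe set and was not called at another nearly as bright (-0.2). Txnip, which inhibits thioredoxin and glucose uptake, had 1900.4, 1820.2, 1676 and 1500.3 in repressed hearts, against 2457.7, 2552.2, 3001.2 and 3924.7 in induced hearts (-0.75 ± 0.228, adjusted p = 0.027). Its call was lost without repressed heart 3 or 4 or induced heart 3 or 4, and its other probe set was not called (-0.08). Trim63, Bcl2l11, Txnip, Sesn1 and Aars were chosen after their values were seen.

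The promoters of Trim63 and Txnip are shown because each holds the FoxO core motif GTAAACA while their transcripts moved in different directions. Each sequence is the 250 bases before the RefSeq transcription start in GRCm38.p6, on the plus strand, with the motif, read on either strand, in capitals. They are chr4:134314870-134315119 for Trim63, with the match starting at position -194 from the start, and chr3:96557707-96557956 for Txnip, with the match at -121.
Trim63: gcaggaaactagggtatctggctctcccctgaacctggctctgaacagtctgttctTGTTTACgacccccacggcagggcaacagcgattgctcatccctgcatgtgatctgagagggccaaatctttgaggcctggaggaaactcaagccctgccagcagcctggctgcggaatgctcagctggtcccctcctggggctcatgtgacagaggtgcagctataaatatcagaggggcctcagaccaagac
Txnip: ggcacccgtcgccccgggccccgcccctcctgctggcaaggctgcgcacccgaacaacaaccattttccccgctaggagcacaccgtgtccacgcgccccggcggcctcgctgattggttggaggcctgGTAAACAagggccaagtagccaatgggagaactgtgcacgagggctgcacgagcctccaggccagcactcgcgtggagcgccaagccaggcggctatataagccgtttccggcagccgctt
Searched on both strands from 250 bases before to 50 after the start, the motif was in 3.15% of the windows of 11723 measured genes. It was in 5.18% of 637 windows of genes called higher and in 1.99% of 654 windows of genes called lower. In the FoxO list 3 of 26 windows held it, those of Sesn1, Trim63 and Txnip, and a match is a run of letters rather than a measured binding site. Of the windows of Bcl2l11, which is outside the list, 1 held a match, starting at -227, and another held none.

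Autophagy genes were called higher more often than lower. Of 36 core autophagy genes 9 were called higher and 1 lower (median 0.2); 5 were higher after scaling to a common median, 6 with the Actb ratio in the model, 14 where the probe sets of a gene were averaged, and 5 without induced heart 1. Gabarapl1, which binds cargo on the autophagosome membrane, had signals of 2188.2, 2433.8, 2857.9 and 3070.9 in repressed hearts, against 748.3, 1022.1, 1205.9 and 1020.6 in induced hearts (log2 change 1.36 ± 0.152 SE, adjusted p = 1.78e-05). Ulk1, the kinase that starts autophagy, had 1458.9, 1243, 1194.2 and 1366.5 in repressed hearts, against 727.8, 749.1, 710.3 and 779.9 in induced hearts (0.78 ± 0.124, adjusted p = 0.000547). Neither gene overlapped between the groups. Sqstm1, the cargo receptor p62, rose by 0.78, Gabarap rose by 0.58, and Atg9a, the membrane protein that seeds autophagosomes, rose by 0.81 on chip 430B. Map1lc3a, another coat protein, stood at 0.31 (adjusted p = 0.0528).

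Lysosomal genes were called in both directions. Of 39 genes 5 were called higher and 2 lower, with 2 and 4 after scaling to a common median. Of all genes 5.23% were called higher and 5.36% lower. The protease cathepsin L (Ctsl) rose by 0.74, and the calcium channel Mcoln1 rose by 0.54. Cathepsin D (Ctsd) rose by 0.5, a call lost after scaling to a common median. The proton pump subunit Atp6v0e fell by 0.52 and progranulin (Grn) fell by 0.6. Cathepsin B (Ctsb), the brightest uncalled member, stood at 0.1 (adjusted p = 0.475).

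Proteasome subunits were lower in part, while the muscle ubiquitin ligases were higher. Of 40 subunits 15 were called lower and 0 higher (median -0.19), 14 lower with the Actb ratio in the model and 10 to 14 when any 1 heart was left out (10 without repressed heart 4). Psmd14, the deubiquitinase of the lid, had signals of 1514.6, 1712.2, 1591.8 and 1672.5 in repressed hearts, against 2458.5, 3098.8, 2873.3 and 2680.5 in induced hearts (log2 change -0.75 ± 0.101 SE, adjusted p = 0.000121). Of the core particle Psmb3 fell by 0.97, Psma6 fell by 0.77, Psma2 fell by 0.56 and Psmb6 fell by 0.55. No repressed heart reached an induced heart in any of these 5 genes. Psmb7, the catalytic subunit that is the brightest uncalled member, stood at 0.2 (adjusted p = 0.226). Of 28 ubiquitin-conjugating enzymes 5 were called lower and 1 higher; Ube2v2 fell by 0.66, Ube2f fell by 0.71, with a second probe set not called (-0.26), and Ube2b rose by 0.4, a call lost after scaling to a common median.

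**Figure D3:**
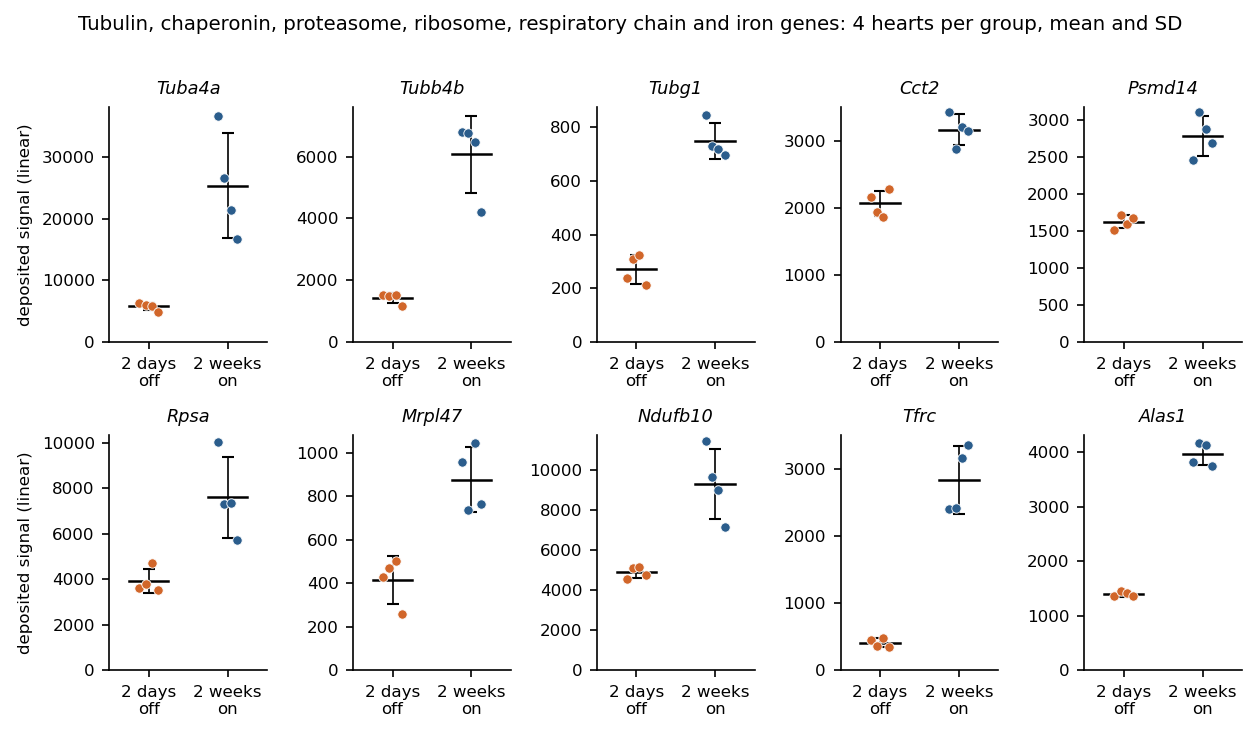
Deposited linear signal of 10 genes called lower, of tubulin (Tuba4a, Tubb4b, Tubg1), chaperonin (Cct2), proteasome (Psmd14), cytosolic and mitochondrial ribosome (Rpsa, Mrpl47), complex I (Ndufb10), iron uptake (Tfrc) and heme synthesis (Alas1). Points are the 4 hearts after 2 days of repression (orange, left) and the 4 hearts after 2 weeks of induction (blue, right), lines are means and bars SD; no panel shows an overlap.

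Most tubulin genes, which encode the subunits of microtubules, fell. Of 13 measured tubulins 8 were called lower and 0 higher (median -0.95), the same counts as with the Actb ratio in the model and with any 1 heart left out. Where the probe sets of a gene were averaged, 8 were lower, with a median of -0.48. Tuba4a, an alpha-tubulin abundant in striated muscle, had signals of 6308.3, 6037.4, 5777.2 and 4945.9 in repressed hearts, against 36576.3, 26647.6, 21373.7 and 16762.1 in induced hearts (log2 change -2.07 ± 0.189 SE, adjusted p = 1.62e-06). Tubb4b, a beta-tubulin, had 1510.4, 1483, 1535.3 and 1178.4 in repressed hearts, against 6810.4, 6769.5, 6481.6 and 4216.5 in induced hearts (-2.03 ± 0.153, adjusted p = 1.63e-07). The groups lay wide apart for both, and the means before induction were 20822.3 and 3730.8. The 4 dimmer probe sets of Tubb4b were not called, at -0.4 to 0.44. Tubg1, the gamma-tubulin of microtubule nucleation, fell by 1.32 ± 0.137, Tubb2a fell by 1.54 ± 0.174 and Tuba8 fell by 1.69 ± 0.22, all with no overlap of hearts. Tubb6 fell by 2.1 on chip 430A, with signals of 36.4 to 103.3 in repressed hearts and 243.1 to 635.7 in induced hearts, and its probe set on chip 430B was not called (0.58). Tubb4a stood at 0.24 (adjusted p = 0.481) and Tube1 at -0.07 (adjusted p = 0.891).

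Genes of the chaperonin that folds tubulin and actin were lower as well. Of 19 genes of the TRiC chaperonin, prefoldin and the tubulin cofactors 11 were called lower and 0 higher (median -0.42), 8 lower with the Actb ratio in the model and 8 to 11 with any 1 heart left out. Cct2 had signals of 2167.7, 1939.9, 1868.1 and 2280.2 in repressed hearts, against 3429.9, 2873.5, 3199.5 and 3149.7 in induced hearts (log2 change -0.61 ± 0.106 SE, adjusted p = 0.00107). The groups did not overlap. Of other chaperonin subunits Cct5 fell by 0.42, and Cct3 fell by 0.71 at its brightest probe set and by 1.16 at another. The remaining probe sets of Cct3 were not called (-0.46 to 0.19). The cofactor Tbca fell by 0.43 and the prefoldin subunit Pfdn5 fell by 0.38. Tcp1 stood at -0.21 (adjusted p = 0.2). Cct4 stood at -0.12 (adjusted p = 0.469) at its brightest probe set and fell by 0.83 at another nearly as bright.

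**Figure D4:**
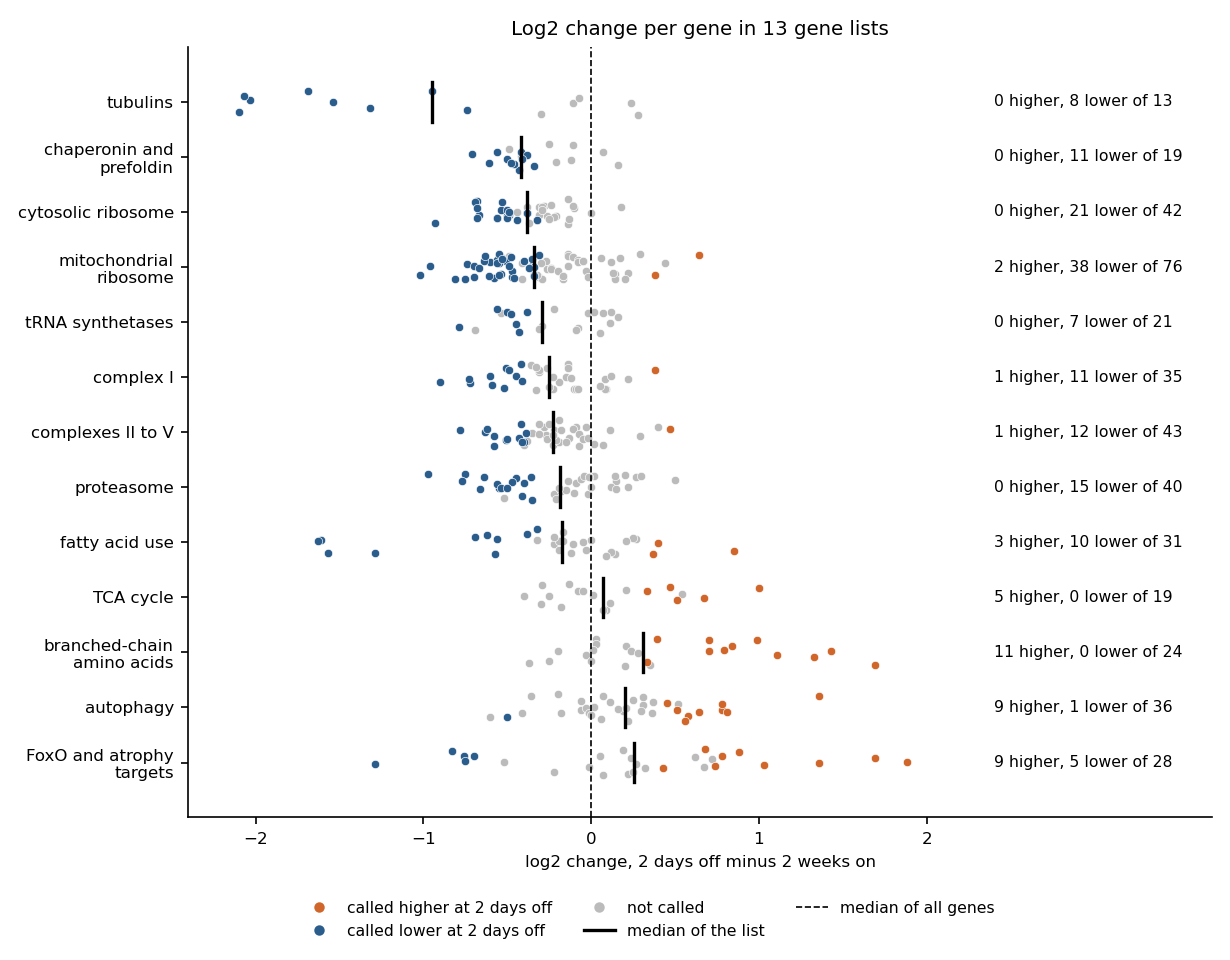
Log2 change of each measured gene (2 days of repression minus 2 weeks of induction) in 13 gene lists; orange points were called higher, blue lower and grey not called. The bar is the list median, the dashed line the median of all genes, and the numbers at the right count the calls; tubulins have the lowest median (-0.95) and branched-chain amino acid genes the highest (0.31).

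Ribosomal protein genes were lower in part for both the cytosolic and the mitochondrial ribosome. Of 42 cytosolic ribosomal proteins 21 were called lower and 0 higher (median -0.38), and 41 of the 42 had a negative change. The count was 29 after scaling to a common median, 15 with the Actb ratio in the model and 14 without induced heart 1. Rpsa, of the small subunit, had signals of 3635.1, 3789.4, 4703.1 and 3539.4 in repressed hearts, against 10041.6, 7303.8, 7375 and 5740.5 in induced hearts (log2 change -0.93 ± 0.161 SE, adjusted p = 0.000962). The groups did not overlap, nor did they for Rps19, which fell by 0.69, Rpl13a, which fell by 0.68, Rpl27, which fell by 0.68, and Rpl11, which fell by 0.67. Rpl13a was also called lower at its dimmest probe set (-0.64) but not at those between (-0.15 and -0.26). Of the mitochondrial ribosome, which translates the respiratory subunits encoded in mitochondria, 38 of 76 proteins were called lower and 2 higher (median -0.34), 34 lower with the Actb ratio in the model and 24 to 36 with any 1 heart left out (24 without repressed heart 1). Mrpl47, of the large subunit, had 428.1, 471.6, 499.9 and 257.1 in repressed hearts, against 957.5, 737.2, 1044.7 and 765.7 in induced hearts (-1.02 ± 0.188, adjusted p = 0.00146). No heart of the repressed group reached the induced group. Mrpl19 fell by 0.81, Mrpl45 fell by 0.75, Mrpl51 fell by 0.74 and Mrpl35 fell by 0.7. Mrpl42 and Mrpl16 stood at -0.02 (adjusted p = 0.943) and 0.22 (adjusted p = 0.239).

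Enzymes that load amino acids onto tRNA were lower in part. Of 21 aminoacyl-tRNA synthetases and their partners 7 were called lower and 0 higher (median -0.29), 5 lower with the Actb ratio in the model, 4 where probe sets were averaged and 3 without repressed heart 3. Hars, for histidine, had signals of 598.9, 610.6, 411.9 and 605.5 in repressed hearts, against 1052.6, 941, 927.1 and 1044.6 in induced hearts (log2 change -0.79 ± 0.164 SE, adjusted p = 0.00307). The groups did not overlap. Nars, for asparagine, fell by 0.5 at its brightest probe set and was not called at the next (0.16), and Rars, for arginine, fell by 0.45. Lars, for leucine, fell by 0.43, a call lost without repressed heart 3, and the scaffold protein Aimp2 fell by 0.38, a call lost without repressed heart 1 or 3 or induced heart 2 or 4. Aars, for alanine, had 768.5, 849.9, 900.5 and 921.6 in repressed hearts, against 1585.6, 912.6, 1176.5 and 1274.5 in induced hearts (-0.48 ± 0.149, adjusted p = 0.0317), with overlapping groups, and its call was lost with the Actb ratio in the model and without repressed heart 1, 2 or 3 or induced heart 1, 3 or 4. The core amino acid response motif TGATGNAA was in 5 of 14 synthetase windows, those of Aars, Gars, Iars, Tars and Yars, beside 3.06% of all measured genes. That of Aars, chr8:111033592-111033841 (RefSeq, GRCm38.p6, plus strand, 250 bases before the start), shows such a match in capitals, starting at -112.
Aars: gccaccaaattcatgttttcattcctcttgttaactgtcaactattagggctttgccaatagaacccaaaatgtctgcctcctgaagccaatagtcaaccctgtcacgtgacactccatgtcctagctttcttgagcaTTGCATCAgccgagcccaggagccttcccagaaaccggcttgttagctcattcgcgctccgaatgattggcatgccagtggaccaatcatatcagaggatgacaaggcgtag

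Translation factors were called in both directions. Of 56 initiation and elongation factors 8 were called lower and 4 higher (median -0.06). Of all genes 5.36% were called lower and 5.23% higher, or 7.87% and 7.36% of those read on chip 430A. Eif4e, the cap-binding protein, rose by 0.67 (adjusted p = 0.00895). Eef1e1 fell by 0.88, the elongation factor subunit Eef1d fell by 0.56 and Eif4g2 fell by 0.53. The dimmer probe sets of Eif4g2 were not called (-0.23 to 0.06). Eif4e2, a cap-binding repressor, rose by 0.59 at its brightest probe set of chip 430A and fell by 1.09 at another, and a brighter one on chip 430B was not called (0.27).

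Respiratory chain genes encoded in the nucleus were lower in part. Of 35 complex I genes 11 were called lower and 1 higher (median -0.25), with 9 and 0 where the Actb ratio was in the model, and 9 and 4 after quantile normalization, where the median was -0.05. Of 43 genes of complexes II to V 12 were called lower and 1 higher (median -0.23), with 5 lower where the Actb ratio was in the model and 4 lower without repressed heart 1. After quantile normalization 10 of them were lower and 2 higher (median -0.06). Ndufb10, an accessory subunit of complex I, had signals of 4533.9, 5130, 5180.7 and 4739 in repressed hearts, against 11449.1, 9655, 8998.1 and 7172.2 in induced hearts (log2 change -0.9 ± 0.137 SE, adjusted p = 0.000365). The groups did not overlap, and the same held for Ndufb7, which fell by 0.73, Ndufc2, which fell by 0.72, Ndufa2, which fell by 0.6, and Ndufa8, which fell by 0.52. Cycs, cytochrome c, fell by 0.78, and Uqcrh, the hinge protein of complex III, fell by 0.63 on chip 430A, while its brighter probe set on chip 430B was not called (-0.2). Atp5d, of ATP synthase, fell by 0.58, and Atp5k fell by 0.62, a call lost with the Actb ratio in the model and without repressed heart 1 or 4 or induced heart 1. Of 28 mitochondrial import genes 5 were called lower and 0 higher; Pam16, of the import motor, fell by 0.67 and Timm13, a small carrier, fell by 0.52.

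Enzymes of branched-chain amino acid breakdown moved the opposite way. Of 24 genes 11 were called higher and 0 lower (median 0.31), 9 higher with the Actb ratio in the model and 8 after scaling to a common median. Ppm1k, the phosphatase that switches on the branched-chain ketoacid dehydrogenase, had signals of 2373.9, 1748.2, 1501 and 1479.8 in repressed hearts, against 507.9, 795.8, 744.2 and 739.1 in induced hearts on chip 430B (log2 change 1.33 ± 0.206 SE, adjusted p = 0.00115). Acadsb, a dehydrogenase of the isoleucine route, had 1055.4, 1162.8, 1118.7 and 1351.2 in repressed hearts, against 568.3, 746.7, 627.8 and 585.4 in induced hearts (0.84 ± 0.119, adjusted p = 0.00021). Repressed hearts were above induced hearts without overlap in both. Ivd, of the leucine route, rose by 0.7 at its brightest probe set and was not called at the next (0.24), Pccb, of propionyl-CoA carboxylase, rose by 0.7, and methylmalonyl-CoA mutase (Mmut) rose by 0.79. Acat1, the brightest uncalled member, stood at -0.03 (adjusted p = 0.864) at its brightest probe set. At a dimmer one Acat1 was called lower (-0.36, adjusted p = 0.0422), and at its dimmest it was not called (0.17).

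In the citric acid cycle 5 of 19 genes were called higher and 0 lower (median 0.07), with 2 higher and 1 lower after scaling to a common median. Pcx, pyruvate carboxylase, had signals of 798, 786.9, 980.2 and 931.7 in repressed hearts, against 436, 415.3, 355 and 444.1 in induced hearts (log2 change 1 ± 0.138 SE, adjusted p = 0.00017). The groups did not overlap. Suclg2, of succinate-CoA ligase, rose by 0.67 on chip 430A, while its brighter probe set on chip 430B was not called (0.22). Ogdh, of the oxoglutarate dehydrogenase complex, rose by 0.51, a call lost after scaling to a common median. Sdha, the catalytic subunit of complex II, rose by 0.47, a call lost after scaling to a common median. Idh3g rose by 0.33, a call lost after scaling to a common median, with the Actb ratio in the model and without repressed heart 2 or 3 or induced heart 1, 2 or 3, and was not called at a probe set of like brightness (-0.1).

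Fatty acid genes were called in both directions. Of 31 genes 10 were called lower and 3 higher (median -0.17), with 8 lower and 6 higher after quantile normalization (median -0.01). Plin5, which coats lipid droplets in oxidative tissue, had signals of 429.7, 493.1, 685.9 and 369.3 in repressed hearts, against 1480.7, 1778.9, 1689.4 and 1391.6 in induced hearts (log2 change -1.61 ± 0.175 SE, adjusted p = 1.35e-05), and its probe set on chip 430B fell by 2.4. Slc25a20, the carrier of acylcarnitines into mitochondria, had 1492.2, 2192.4, 1711.1 and 1734.6 in repressed hearts, against 6821.8, 4746.5, 5628.7 and 4485.9 in induced hearts (-1.57 ± 0.22, adjusted p = 0.000187). Angptl4, an inhibitor of lipoprotein lipase, had 107.7, 175, 260.9 and 51.5 in repressed hearts, against 515.5, 688.3, 651.1 and 297.2 in induced hearts (-1.63 ± 0.319, adjusted p = 0.00219). All 3 genes were lower in every repressed heart than in any induced heart. Eci2, an enoyl-CoA isomerase, fell by 0.62, while Echs1, the short-chain enoyl-CoA hydratase, rose by 0.85. Ppara, the nuclear receptor that governs many fatty acid genes, had 703.3, 594.7, 888.2 and 651.2 in repressed hearts, against 399.6, 121.3, 382.5 and 274 in induced hearts and rose by 1.22 (adjusted p = 0.0027).

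Both glucose transporters of heart muscle were higher. Slc2a4, the insulin-responsive transporter GLUT4, had signals of 3520.3, 3474.3, 3190 and 3753.6 in repressed hearts, against 1870.6, 1802.1, 1715.6 and 1606.9 in induced hearts (log2 change 0.97 ± 0.111 SE, adjusted p = 2.03e-05). All repressed hearts were above all induced hearts. Slc2a1, the basal transporter GLUT1, rose by 0.74, and Pdk2, a pyruvate dehydrogenase kinase, rose by 0.73, against the fall of Pdk4. Pgam2, the muscle phosphoglycerate mutase, fell by 0.73. Over the list of 30 glucose genes 3 were called higher and 4 lower (median 0.1). Of 20 glycogen genes 3 were called higher and 1 lower: Ugp2, which makes UDP-glucose, rose by 0.81, Ppp1r3c rose as given above, and Pygb, brain glycogen phosphorylase, rose by 0.71, a call lost after scaling to a common median. Of 20 regulators of mitochondrial genes 4 were called higher and 2 lower; Polrmt, the mitochondrial RNA polymerase, fell by 0.65 at its brightest probe set and stood at -0.01 (adjusted p = 0.986) at another nearly as bright.

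Iron and heme genes held some of the largest falls. Tfrc, the transferrin receptor that takes up iron, had signals of 452.9, 355.5, 483.3 and 337.7 in repressed hearts, against 2393.5, 2410.1, 3162.6 and 3360.1 in induced hearts (log2 change -2.65 ± 0.179 SE, adjusted p = 3.48e-08). Alas1, the rate-limiting enzyme of heme synthesis, had 1364.3, 1460.3, 1407.6 and 1356 in repressed hearts, against 3825.4, 4175.8, 4140.5 and 3760.7 in induced hearts (-1.48 ± 0.12, adjusted p = 4e-07). The groups lay far apart in both genes, and the means before induction were 1031.8 and 1999. Fech, the last enzyme of the heme route, rose by 0.71. Of 22 iron and heme genes 4 were called lower and 2 higher.

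Structural genes of heart muscle were called in both directions, beside 5.23% higher and 5.36% lower of all genes. Of 34 M-band and Z-disc genes 5 were called higher and 3 lower (median 0.15). Nebl, nebulette of the Z-disc, rose by 1.76 on chip 430A, at a probe set that averaged 867.1 in repressed hearts and 208.9 in induced hearts, while a far brighter one on chip 430B averaged 5132.7 in repressed hearts and 5007.4 in induced hearts and stood at 0.03 (adjusted p = 0.955); its remaining probe set stood at -0.02 (adjusted p = 0.977). Pdlim1, a Z-disc adaptor, fell by 0.71. Of 23 intercalated disc genes 5 were called higher and 2 lower; the linker Plec rose by 0.83, the catenin Ctnnd1 rose by 0.83 and the receptor Cxadr rose by 0.75, while vinculin (Vcl) fell by 0.79. Probe sets of like brightness were not called for Plec (0.1), Ctnnd1 (0.34) and Cxadr (0.27). Of 26 calcium handling genes 4 were called higher and 3 lower, with Cacna1c, the pore of the L-type channel, at 0.67 and Casq1 at -1.09. Of 19 ion channel genes 4 were called higher and 2 lower. The potassium channel Kcnh2 fell by 0.64. Kcnj11 and Abcc8, which form ATP-sensitive potassium channels, rose by 1.16 and 0.85 (0.53 for Abcc8 without induced heart 2), and the pacemaker channel Hcn2 rose by 0.68. The rise of Kcnj11 was at a dim probe set of chip 430A, and its brighter one on chip 430B averaged 1308.2 in repressed hearts and 1119.5 in induced hearts and stood at 0.21 (adjusted p = 0.739). Of 25 myosin and actin genes 1 was called higher, Mylk3, the cardiac myosin light chain kinase (0.93, chip 430B), and 1 lower, the tropomyosin Tpm4 (-0.74).

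Heart stress genes were higher in part. Of 15 natriuretic and stress genes 3 were called higher and 0 lower (median 0.36). Nppb, brain natriuretic peptide, had signals of 5914.2, 3895.5, 6474.1 and 5571.4 in repressed hearts, against 2031.3, 1849.5, 1237.8 and 1252 in induced hearts (log2 change 1.76 ± 0.379 SE, adjusted p = 0.0041). Ankrd1, a stress-responsive titin-binding protein, had 16034.3, 18466.1, 18855.4 and 22431.9 in repressed hearts, against 6219, 8378.2, 5469.3 and 5871.4 in induced hearts (1.55 ± 0.3, adjusted p = 0.00202). Neither overlapped between the groups. Corin, the protease that activates natriuretic peptides, rose by 1.49, a call lost with the Actb ratio in the model and without repressed heart 1 or 4. Nppa, atrial natriuretic peptide, had 16660.3, 11186.1, 10730.4 and 3981.8 in repressed hearts, against 4125, 1354, 6499.4 and 2469 in induced hearts and was not called, at 1.6 (adjusted p = 0.109). Over 8 atrial marker genes on chip 430A, Nppa itself among them, the summed signal ranged from 4923.9 to 44180 in repressed hearts and from 3354.3 to 16843.1 in induced hearts. None of these markers was at 0, 0 of them were called, and their part in the natriuretic genes was not tested.

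Matrix and vessel genes were called in both directions, beside 10.6% of all genes called. Of 35 collagen genes 2 were called higher and 0 lower; Col4a6, of basement membrane, rose by 1.03, and Col3a1, a fibrillar collagen, stood at -0.06 (adjusted p = 0.824). Of 38 matricellular genes 2 were called higher and 2 lower. Timp2, a metalloproteinase inhibitor, rose by 0.68 and Ccn1, a secreted matrix protein, rose by 0.75. Postn fell by 0.66 (adjusted p = 0.0353), from a mean of 6286.7 in induced hearts to 3909 in repressed hearts. Of 23 angiogenic genes 3 were called higher and 1 lower. Vegfa and Vegfb, vascular growth factors, rose by 0.61 and 0.69, and Epas1, a hypoxia-inducible factor, rose by 1.15 on chip 430A, a call lost with the Actb ratio in the model. The brighter probe set of Epas1 on chip 430B averaged 4471.8 in repressed hearts and 4582.8 in induced hearts and stood at -0.04 (adjusted p = 0.937).

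Replication genes were lower where they were called. Of 36 genes 4 were called lower and 0 higher (median -0.28). Mcm6, of the replicative helicase, had signals of 54, 12, 85.3 and 178.1 in repressed hearts, against 368.7, 336.7, 430.1 and 409.1 in induced hearts (log2 change -1.87 ± 0.293 SE, adjusted p = 0.000478). The groups did not overlap, and before induction the mean was 18.8. Pola2, of DNA polymerase alpha, fell by 0.89. Mcm7 fell by 0.54, a call lost with the Actb ratio in the model, and Mcm2 fell by 1.06, a call lost with the Actb ratio in the model and without repressed heart 2 or induced heart 1. Of 35 mitosis genes 3 were called lower and 0 higher, beside 5.36% lower of all genes (7.87% of those read on chip 430A). With the Actb ratio in the model 0 of them were lower. Pcna, the replication clamp, stood at -0.33 (adjusted p = 0.138).

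Protein folding genes of the endoplasmic reticulum were called in both directions. Of 22 genes 4 were called lower and 1 higher, while the median was 0.05 and 14 had a positive change. Where the probe sets of a gene were averaged, 2 were lower and 2 higher (median 0.14). Hspa5, the chaperone BiP, had signals of 3866.3, 2285, 2651.2 and 3580.9 in repressed hearts, against 5037.5, 4562.4, 4774.6 and 5347.1 in induced hearts (log2 change -0.69 ± 0.166 SE, adjusted p = 0.00779). No repressed heart reached an induced heart. The dimmer probe sets of Hspa5 were not called (-0.33 and 0.19). Hsp90b1 fell by 0.63 at its brightest probe set, and its other one went the other way without a call (1.25, adjusted p = 0.0762). Manf, a secreted stress protein, fell by 0.87. Sel1l, of the degradation machinery, rose by 0.64 on chip 430A, while its brighter probe set on chip 430B was not called (-0.06). Of 24 heat shock genes 5 were called lower and 1 higher, or 3 and 4 where probe sets were averaged; the small heat shock protein Hspb3 fell by 0.96 and the mitochondrial co-chaperonin Hspe1 fell by 0.62. Hmgcs1, of sterol synthesis, fell by 0.98 at its brightest probe set and was not called at its others (-0.3 to 0.14). Of 25 sterol genes 3 were called lower and 1 higher, beside 5.36% lower and 5.23% higher of all genes. In nucleotide synthesis Nme1 fell by 0.94 while Prps1 and Prps2, which make the ribose donor, rose by 0.69 and 1.16, with a brighter probe set of Prps2 on chip 430B not called (0.39). Of 24 immediate early genes 1 was called higher and 1 lower, beside 5.23% higher and 5.36% lower of all genes. The nuclear receptor Nr4a1 rose by 1.26 and Gadd45g fell by 1.19 (adjusted p = 0.00196). Dbp, a clock output gene, fell by 1.3 (-0.86 with the Actb ratio in the model) although its hearts overlapped, with signals of 386.9 to 795 in repressed hearts and 789.6 to 2055.3 in induced hearts. Of 18 clock genes Dbp was the 1 called lower, while 3 were called higher (0 with the Actb ratio in the model).

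Markers of other cells were called in a few cases. None of the markers was at 0. Endothelial markers gave 1 of 15 called lower, and their summed signal on chip 430A overlapped between the groups. Fibroblast markers gave 2 of 13 called higher, among them Dpep1 (1.06), with sums of 47965.2 to 57112.2 in repressed hearts and 46853.6 to 58271.2 in induced hearts. Leukocyte markers gave 2 of 16 called higher and sums of 9586.7 to 14147.8 in repressed hearts, against 9043.8 to 9511.4 in induced hearts, which did not overlap, and 0 were called with the Actb ratio in the model. Mural cell markers gave 1 of 12 called higher and sums of 24474.5 to 28206.3 in repressed hearts, against 21936.8 to 24333.5 in induced hearts. Cardiomyocyte markers had sums of 175606.7 to 225727.6 in repressed hearts, against 187127.9 to 322468 in induced hearts, so the defining markers of heart muscle were present. Fat markers were high in repressed heart 3, with an Adipoq signal of 1510.9 and a Ucp1 signal of 2369.8. The part of these markers in the results above was not tested.

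The 2-day response was also set against the late one, 3 hearts after 6 weeks of induction and 2 weeks of repression against 3 hearts after 6 weeks of induction, which share no hearts with it. The length of induction, the length of repression and the age of the mice all differ, so their effects cannot be told apart. Of all genes 0.642% (94) differed between the responses by a test of that difference, 47 with a more positive early change (0.321%) and 47 with a more negative one (0.321%). Mthfd2, of mitochondrial folate metabolism, had log2 changes of 0.42 early and -2.84 late, a difference of 3.26 ± 0.447 (adjusted p = 0.00234). Fmo2, a monooxygenase, had log2 changes of 1.1 early and -1.79 late, a difference of 2.89 ± 0.438 (adjusted p = 0.00295), and Ddit4, an inhibitor of mTORC1, of -1.14 early and -3.69 late, a difference of 2.55 ± 0.325 (adjusted p = 0.00112). In each the early change was the more positive. In the early comparison a brighter probe set of Fmo2 on chip 430B was not called (0.46), nor was one of like brightness on chip 430A (-0.1). Among the FoxO-linked genes Fbxo32 had log2 changes of 1.88 early and 0.47 late, a difference of 1.41 ± 0.331 (adjusted p = 0.0475), and Cdkn1a of -0.83 early and -2.57 late, a difference of 1.74 ± 0.31 (adjusted p = 0.0108). Among glucocorticoid and stress genes, 5 of 20 had a more positive early change, with list medians of 0.08 early and -1 late, Glul, glutamine synthetase, among them (1.12). On the negative side Mcm6 had log2 changes of -1.87 early and 0.83 late, a difference of -2.7 ± 0.447 (adjusted p = 0.00551). Abcc9, the other subunit of ATP-sensitive potassium channels, had log2 changes of 0.43 early and 2.4 late, a difference of -1.97 ± 0.241 (adjusted p = 0.000936), and Alas1 of -1.48 early and -0.69 late, a difference of -0.79 ± 0.183 (adjusted p = 0.0464). The differences of Fbxo32 and Alas1 lost their call in 11 and 13 of 14 fits that left out 1 heart, and after scaling to a common median, while those of Mthfd2, Fmo2, Ddit4, Cdkn1a, Glul, Mcm6 and Abcc9 kept it in all 14. Tubulins had 8 and 4 of 13 called lower in the early and the late response, and for 0 of them the difference between the responses was called; of all genes 7.19% were called higher and 5.53% lower in the late response. On chip 430A 139 probe sets differed, against 64 without induced heart 3 and 245 without 6-week induced heart 3, and on chip 430B 0.0913% differed.

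**Figure D5:**
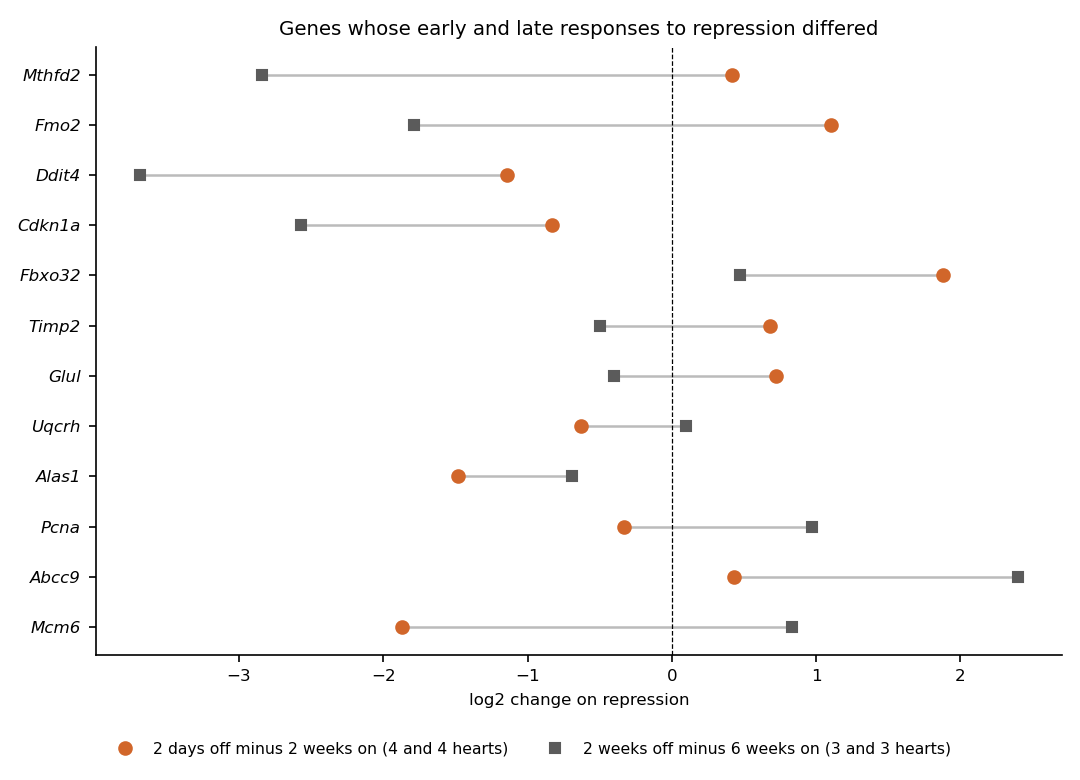
Log2 change of 12 genes, 2 days of repression against 2 weeks of induction (orange circles, 4 and 4 hearts) and 2 weeks of repression against 6 weeks of induction (grey squares, 3 and 3 hearts). Mthfd2 and Ddit4 are far lower in the late response, and Mcm6 and Abcc9 are lower in the early one.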

How the data were processed

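Total RNA of each heart was biotin-labelled and hybridised to 2 Affymetrix chips, 430A and 430B, by standard procedures, per the labels' protocols. The values are the authors' deposited linear probe set intensities (signals), for which the submitters' processing notes name MAS5; detection calls were not used here. The deposited intensities had equal trimmed means on all arrays, 500.2 on chip 430A and 122.5 on chip 430B (2% trimmed at each end), and were not normalized again. Control probe sets (64 a chip) were left out, probe sets were kept with a mean over 18 arrays of at least 20% of the trimmed mean (100 and 24.5), and 10% of it (50.02 and 12.25) was added before log2.

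Linear models with moderated, intensity-trended variances (limma 3.58.1, R 4.3.3) were fitted over all 18 arrays of a chip with the 5 groups as terms, with Benjamini-Hochberg adjustment within a chip. The fit was tested on simulated data. A gene was taken as its brightest kept probe set with a single symbol, on chip 430A where it had such a set. Symbols came from the platform annotation: 20380 of 22690 probe sets of chip 430A and 14661 of 22575 of chip 430B had a single symbol. The count of hearts, 4 against 4, limits the precision.

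The comparison and the gene lists were chosen with earlier results of these data known. Named genes are Akt1, the 8 largest rises and 8 largest falls of chip 430A and 4 of each of chip 430B among called probe sets whose hearts do not overlap, up to 5 called and 2 uncalled members of a list, and the 4 largest differences of each sign between the early and late responses, of which a part is given. Exceptions are said to be chosen after their values were seen. Alternatives changed the scaling, the offset, the filter, the arrays in the fit, the Actb ratio as a covariate, and left out each heart. Replicate numbers did not pair the samples.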

Additional observations from a re-analysis of the deposited data

Results flagged for a closer look

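A heart was flagged where its gap to the nearest other heart of its group of 4 passed Dixon's 95% critical value as a share of the group's range. Tested were 394 groups, those of 193 named probe sets and of the Actb and Gapdh ratios, and 16 were flagged. Groups of uncalled probe sets were counted among the 394 but were not flagged, so 16 of 394 is not the full rate. Chance passes about 1 in 20 groups tested. In the 2-day repressed hearts, heart 3 stood apart in Asb15 (461.4, others 742.4 to 797), Gabarap (4557.9, others 4051.5 to 4131.2), Hars (411.9, others 598.9 to 610.6), Nxpe4 on chip 430B (50.2, others 18.9 to 24.1) and Tubb6 (103.3, others 36.4 to 42.6). Repressed heart 4 stood apart in Plin5 on chip 430B (505.1, others 773 to 826.3), Rars (770.2, others 687.3 to 700.3), Sqstm1 (9149.6, others 8348.3 to 8431.1) and Tubb4b (1178.4, others 1483 to 1535.3). In the 2-week induced hearts, heart 1 stood apart in Ndufa2 (7292.8, others 5475 to 5740) and Sdha (5544.2, others 6714.7 to 6808.1). Induced heart 2 did so in Hmgcs1 (909.2, others 1312.2 to 1371.3) and, on chip 430B, in Arhgap26 (39.8, others 7.01 to 10.7) and Tmem143 (60.3, others 18 to 20.6). Induced heart 3 was high in Timp2 (2206.8, others 1708.4 to 1747.9), and induced heart 4 was low in Tubb4b (4216.5, others 6481.6 to 6810.4).

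The early response differed from the late one, by limma's test of the difference, for 12 genes among the 193 probe sets. The early change was the more positive in Mthfd2 (difference 3.26), Fmo2 (2.89), Ddit4 (2.55), Cdkn1a (1.74), Fbxo32 (1.41), Timp2 (1.19) and Glul (1.12). It was the more negative in Mcm6 (-2.7), Abcc9 (-1.97), Pcna (-1.3), Alas1 (-0.79) and Uqcrh (-0.73). With any 1 of 14 hearts left out in turn, the calls of Fbxo32, Alas1 and Uqcrh were lost in 11, 13 and 9 fits, and those of the other 9 genes were kept.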

How the results depend on the processing

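Of 167 called probe sets named in the report, 158 stayed called after scaling to a common median, 158 with the Actb ratio in the model, 167 after quantile normalization and 159 to 164 with any 1 heart left out, and 0 turned their sign under these alternatives. Postn, Casq1, Kcnh2, Gadd45g and some further probe sets of other named genes were not among the 167. The count on chip 430A stayed within 1.5 times of 2807 in every alternative run. On chip 430B the count of 412 became 253 with the Actb ratio in the model, 748 with only the 8 arrays of both groups, and 199 to 366 with any 1 heart left out (199 without repressed heart 1, 249 without repressed heart 2, 229 without induced heart 3). For the difference between the early and late responses, the 139 probe sets of chip 430A became 69 after scaling to a common median, 258 without before-induction hearts 3 and 4 and 6-week induced heart 3, 305 with the Actb ratio, and 64 to 245 with any 1 heart left out. The 16 of chip 430B became 6 with no filter, 43 without those 3 hearts, 30 with the Actb ratio, and 1 to 52 with any 1 heart left out. The causes were not tested. Samples of the same replicate number did not deviate together (correlations of -0.06 to 0.004, and no sample correlated best with its own number), and a replicate block gave 3070 calls on chip 430A and 578 on chip 430B. Probe sets near background are limited by the offset, which shrinks their changes.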
